A study of Mus musculus with 8 samples.

Results

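The suppressor of cytokine signalling (Socs) family comprises Socs1 to Socs7 and Cish, and the data describe where the active chromatin mark H3K27ac differed around these 8 genes between Nrip1KO and Ctrl primary mouse myotubes. Nrip1 encodes RIP140, a nuclear receptor coregulator. A differential region was taken to belong to a family gene when it shared a base with the gene, when the gene had the nearest protein-coding start, or when its centre lay within 200 kb of the gene start. Of 11180 differential regions in all, 41 met this rule, 9 of 3917 increased and 32 of 7263 decreased in the KO, and no region belonged to more than 1 family gene. The members were thus chosen by the positions of the called regions, so the counts at the family genes are descriptions and were not tested.

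The study had 8 libraries in 4 groups of 2, namely Nrip1KO and Ctrl myotubes, each with an H3K27Ac antibody and with IgG. Satellite cells of gastrocnemius muscle were expanded in medium with EGF, insulin and dexamethasone in every group and differentiated for 4 days, and their nuclei were profiled by CUT&RUN, in which an antibody-tethered nuclease releases the DNA beside a mark. Ctrl cells are described as wild type. The labels give the KO as Nrip1KO, and the study describes the profiled cells as coming from its striated muscle line, in which floxed Nrip1 is deleted by Cre under the muscle creatine kinase (MCK) promoter, a promoter of differentiating and mature heart and skeletal muscle. Neither age nor sex of the animals was given for the cultures. The labels name a different supplier for the H3K27ac antibody than the study's methods. The data used here were 2 lists of regions, 1 per direction, whose peak intensity differed at least 2-fold. They hold no value per library, so neither the level in each sample nor the spread between replicates could be given, and the depth per library is unknown.

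SOCS proteins are intracellular brakes on cytokine signalling. Cytokines activate JAK kinases on their receptors, the JAKs phosphorylate STAT transcription factors, and STATs switch on Socs genes, whose products feed back on the same receptors. Each family member carries an SH2 domain, which binds phosphotyrosine, and a SOCS box, which recruits Elongin B, Elongin C and Cul5 to mark bound proteins for degradation. SOCS1 and SOCS3 also inhibit JAKs directly through a kinase inhibitory region. H3K27ac marks active promoters and enhancers. A gene with no region in the lists may still be acetylated in both genotypes, since only changes past the cutoff were listed.

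Regions were found at 6 of the 8 genes. Socs1 had 19, Socs3 had 10, Socs2 and Socs6 had 4 each, and Socs5 and Cish had 2 each, while Socs4 and Socs7 had none. The direction was mixed across the family. Every region at Socs1 and Socs5 was decreased and both at Cish were increased, whereas Socs2, Socs3 and Socs6 had regions of either direction. In all, 22.0% of the family's regions were increased (Wilson 95% interval 12.0 to 36.7, counting error only), beside 35.0% of all regions (34.2 to 35.9). Without Socs1 the share was 40.9% (9 of 22, 23.3 to 61.3), so the lower share over the family rested on that single locus.

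**Figure D1:**
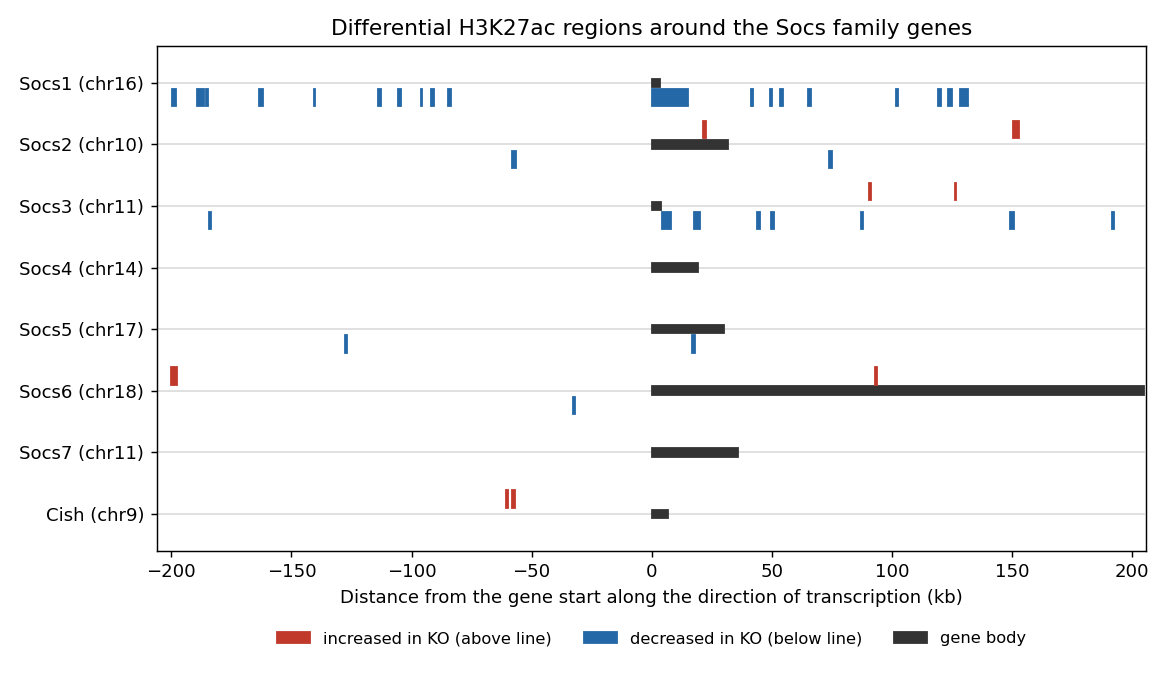
Differential H3K27ac regions around each Socs family gene, plotted by distance from the gene start along the direction of transcription (kb), with increased regions above and decreased regions below each line and the gene body in black, drawn up to the edge of the plot. The 19 decreased regions of Socs1 include a broad one over the gene, Socs4 and Socs7 have none, and increased regions occur at Socs2, Socs3, Socs6 and Cish.

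The number of family genes with a region was set against the same share over all 21938 protein-coding genes. An increased region was centred within 200 kb of the start of 4 of the 8, beside 35.6% of protein-coding genes, and a decreased region of 5 of the 8, beside 55.9%. An increased region shared a base with 2 of the 8 (6.83% of protein-coding genes) and had 2 of the 8 as nearest start (10.7%), in each case Socs2 and Socs6. For decreased regions the numbers were 2 of the 8 (12.3%), Socs1 and Socs5, and 3 of the 8 (17.8%), with Socs3 in addition. A lack of any region within 200 kb, as at Socs4 and Socs7, was shared by 26.9% of protein-coding genes. The loci differed widely in the extent of their regions, which covered 39133 bp in the decreased direction at Socs1, 12093 bp at Socs3, 3186 bp at Socs2, 2304 bp at Socs5 and 501 bp at Socs6. In the increased direction the covered length was 3878 bp at Socs2, 2668 bp at Socs6, 1828 bp at Cish and 1326 bp at Socs3. No spread over libraries is available for these lengths.

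**Figure D2:**
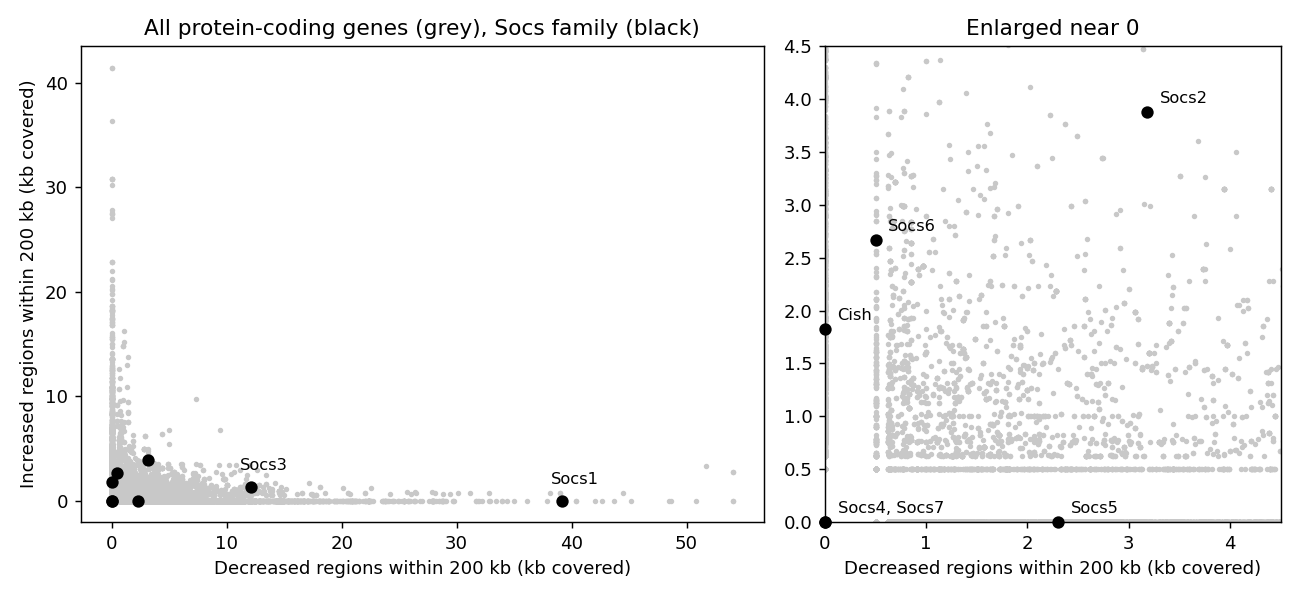
Length covered by decreased regions (x axis, kb) and by increased regions (y axis, kb) within 200 kb of the start of each protein-coding gene (grey points, 21938 genes), with the 8 Socs family genes in black and an enlargement near 0 on the right. Socs1 lies far along the decreased axis at 39133 bp with no increased region, and Socs3 follows at 12093 bp.

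Socs1, the family member best known for restraining interferon signalling, had the most extensive change. The gene (ENSMUSG00000038037.5) lies on the minus strand at chr16:10782240-10785536 of GRCm38 (mm10). A single decreased region of 15129 bp, joined from 4 peaks, covered chr16:10770283-10785411. It took in 3172 bp of the 3297-bp gene (96.2%), including all 636 bp of coding sequence, and continued for 11957 bp downstream of the gene into sequence with no annotated gene. Its upstream edge stopped 125 bp short of the annotated start, so the 250 bases before the start held no differential region. Only 4 protein-coding genes were covered by decreased regions over at least 90% of their length, namely Socs1, Gm10799, Gm14137 and Hrct1.

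The other 18 decreased regions of the Socs1 locus were much narrower, between 501 and 3248 bp, and lay apart from the broad one. The next region upstream was 83600 bp away and the next downstream 26196 bp away, and the broad region held 38.7% of the decreased base pairs of the locus. On the downstream side 8 of the regions lay inside Clec16a, a gene linked to autophagy whose end is 37361 bp from Socs1. Of these, 4 had Socs1 as the nearest protein-coding start, at 41817 to 65648 bp, and the other 4 had Clec16a. On the upstream side 5 regions were nearest to Rmi2, which encodes a subunit of a DNA repair complex, and 5 to Litaf, which encodes a lysosomal membrane protein. Thus 5 of the 19 regions, with 18963 of 39133 bp, had Socs1 itself as nearest protein-coding start. Between the broad region and the Rmi2 regions lies Tnp2, a sperm chromatin gene 2399 bp upstream of Socs1, which no region of the locus touched.

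The decrease at Socs1 lay in surroundings of the same direction. No increased region had its centre closer than 408068 bp to the Socs1 start. On the rest of chromosome 16, 66 regions were increased and 761 decreased (7.98% increased), and in the 10-Mb window that holds Socs1, chr16:10000001-20000000, 5 were increased and 125 decreased (3.85%). Counts of 10-Mb windows, here and below, include the locus's own regions. Nrip1 itself also lies on chromosome 16, 65.6 Mb away, with 3 decreased regions within 200 kb, 2 of them sharing a base with the gene. The floxed part of Nrip1 is removed in the KO, and whether these regions overlap it was not tested. A difference in DNA copy number or depth between the cultures that acts over a whole chromosome was not tested and cannot be told apart here from a change in acetylation.

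Among protein-coding genes, Socs1 ranked 17th of 21938 by decreased base pairs within 200 kb and 14th by the number of decreased regions. Of the 16 genes above it by base pairs, 7 were on chromosome 16 and 3 of them had a start within 200 kb of that of Socs1 and so shared its regions. By decreased base pairs within 10 kb of the start Socs1 ranked 6th with 9876 bp. Candidates for the most similar pattern were the 444 protein-coding genes away from Socs1 whose start was covered by a decreased region, a condition that Socs1 itself misses by 125 bp. The 5 nearest in this length were Glis2 at 9733 bp, Tppp3 at 10541 bp, Oaf at 9185 bp, Efhd2 at 9179 bp and Carhsp1 at 10594 bp. Their loci held 5 to 11 decreased regions and at most 1 increased region, and Glis2, a zinc finger gene, and Carhsp1, an RNA-binding protein gene, are on chromosome 16 as well.

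The DNA under the broad region was GC-rich over the first part of the gene and plainer beyond it. Steps from 500 to 1249 bp past the start had 70.0 to 72.4% GC and 22 to 36 CpG sites each. Those from 1500 to 3249 bp, still inside the gene, had 42.8 to 59.2% and 1 to 5 sites. The averages of the parts inside and downstream of the gene thus do not mark where the GC-rich stretch ends. The part inside Socs1 had a GC content of 59.9% and 154 CpG sites (48.5 per kb), and the part downstream had 50.6% and 99 CpG sites (8.28 per kb). Repeats made up 9.30% of the part inside the gene and 25.9% of the part downstream.

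**Figure D3:**
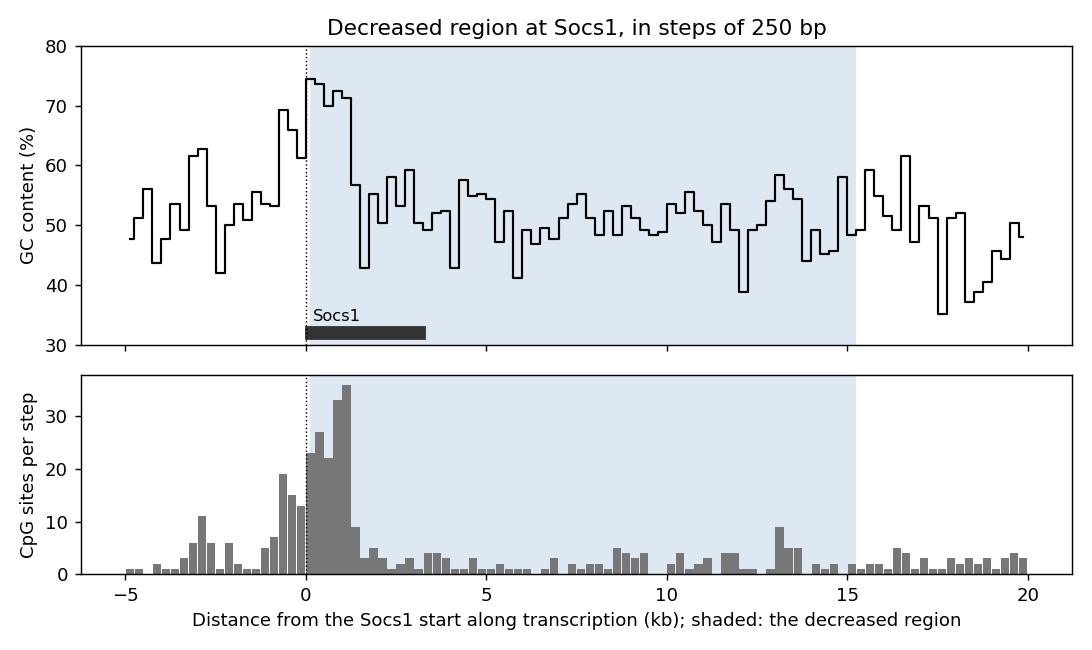
GC content (upper plot, %) and number of CpG sites (lower plot) in steps of 250 bp along the Socs1 locus, by distance from the Socs1 start along transcription (kb), with the decreased region shaded, the start as a dotted line and the gene as a black bar. CpG sites crowd around the start and the first part of the gene, while most of the shaded region lies downstream, where they are sparse.

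Because Socs genes are classical STAT targets, the regions were searched on both strands for TTCNNNGAA, the core of a STAT binding site, and for its palindromic form TTCCNGGAA, every match of which is also a match of the first. The broad Socs1 region held 5 matches, 1 in the gene and 4 downstream of it. Of the downstream ones, 2 lay 25 bp apart, about 13193 bp past the start, in intergenic sequence. The window with this pair and those with the other palindromic matches away from exons are shown to let the letters around them be compared. They come from GRCm38, are written 5′ to 3′ on the minus strand on which Socs1 and Socs3 are transcribed, and have the matches in capitals. The Socs1 pair is at chr16:10772319-10772392, the Clec16a intron matches, in the 3248-bp decreased region, are at chr16:10655621-10655669 and chr16:10654869-10654917, and the Socs3 match, downstream of that gene, is at chr11:117962603-117962651.
Socs1 downstream pair: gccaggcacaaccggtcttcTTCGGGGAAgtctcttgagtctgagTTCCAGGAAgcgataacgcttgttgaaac
Clec16a intron, first: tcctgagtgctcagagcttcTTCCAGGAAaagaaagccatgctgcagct
Clec16a intron, second: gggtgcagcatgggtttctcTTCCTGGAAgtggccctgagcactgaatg
Socs3 downstream: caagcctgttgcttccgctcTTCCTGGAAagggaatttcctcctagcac

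The palindromic form rested on few matches. It occurred in 3 of the 41 regions of the family (7.32%), beside 3.87% of all regions, and all 5 of its matches were in decreased regions of Socs1 and Socs3. The looser TTCNNNGAA occurred in 13 of 41 regions (31.7%), beside 28.6% of all regions, and at 0.359 per kb, beside 0.329 per kb. In the central 500 bp the order turned, with 14.6% of the family's regions beside 15.7% of all. The matches describe the letters of the loci and say nothing of STAT binding in these cells.

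The E-box CAGCTG, the core recognised by MyoD and myogenin, the transcription factors of muscle differentiation, was common at the Socs1 locus. It was present in 18 of its 19 regions (94.7%), beside 57.4% of all decreased regions and 57.6% of the decreased regions on chromosome 16. Regions at Socs1 were wider than most, but the density also differed, at 1.25 per kb beside 0.788 per kb in decreased regions on chromosome 16. Their mean GC content differed as well, at 51.4% beside 46.5%, and its part in the density was not tested. In the central 500 bp of each region the E-box was present in 13 of 19 (68.4%), beside 36.5% for chromosome 16. These regions share a neighbourhood, so the shares are given as a description. The other decreased regions of the family held the E-box in 9 of 13 cases (69.2%), among them 7 of the 8 at Socs3 (87.5%). Their density was lower, however, at 0.774 per kb beside 0.879 in all decreased regions. In the central 500 bp the E-box was present in 3 of these 13 (23.1%), beside 37.9% of all decreased regions. At Socs3 the density was 0.992 per kb, beside 0.918 in decreased regions on chromosome 11. The central 500 bp held the E-box in 2 of the 8 at Socs3, beside 39.1% for chromosome 11. The increased regions of the family held it in 2 of 9 (22.2%, beside 44.1% of all increased regions). The closest pair of E-boxes with room for their flanks lay at the far end of the broad Socs1 region, at chr16:10770769-10770832 on the minus strand, 18 bp apart, and is shown with both E-boxes in capitals.
Socs1 E-box pair: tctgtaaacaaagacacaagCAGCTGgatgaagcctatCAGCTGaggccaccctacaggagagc

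Socs3, the main brake on signalling from gp130, the shared receptor subunit of the IL-6 family, was flanked by decreased regions on its downstream side. The gene (ENSMUSG00000053113.3) lies at chr11:117966079-117970047 on the minus strand, and no region shared a base with it. A decreased region of 3423 bp at chr11:117962155-117965577 began just past its end, with the centre 6181 bp from the start. It was followed by decreased regions of 2226 bp, centred 18839 bp downstream, and of 1218 bp, centred 44431 bp downstream. These 3 were the only regions with Socs3 as nearest protein-coding start, and all lay in intergenic sequence. The region next to the gene was the widest at any family locus outside Socs1, and by decreased base pairs within 10 kb of the start Socs3 ranked 92nd of 21938.

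Farther out, the Socs3 locus was mixed. Of the 5 other decreased regions, 2 had Tha1, which encodes threonine aldolase, as nearest protein-coding start without overlapping a protein-coding gene, and 1 of these was intergenic and 46181 bp from that start. The others lay in introns of Tk1, which encodes thymidine kinase, of Tmc6 and, on the upstream side, of Cyth1 with Dnah17 as nearest start. The 2 increased regions lay nearest to Birc5, the survivin gene, at 501 bp in width, and to Tha1 at 825 bp. The increased region near Tha1 was separated by 2743 bp from a decreased one of 789 bp. With 2 of 10 regions increased, the locus had a share close to those of its surroundings. Its 10-Mb window, which includes the locus, held 13 increased and 70 decreased regions (15.7%). On the rest of chromosome 11 the share was 16.1%. The decreased regions at Socs3 had a GC content of 53.3% ± 2.06 (SD over 8 regions), beside a mean of 48.9% for decreased regions of chromosome 11.

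The Socs3 region next to the gene held 4 of the locus's 7 TTCNNNGAA matches. A further match lay outside any region, in the 250 bases before the RefSeq start of Socs3. That RefSeq start lies inside the gene record given above, whose 5′ end the other distances of Socs3 are measured from. The RefSeq start of Cish likewise lies inside its gene record. RefSeq promoters of GRCm38.p6 were at hand for Cish, Socs1, Socs3 and Socs4, and Socs3 alone of the 4 held the match, beside 7.02% of 32851 promoters. It lay 150 bp before the RefSeq start, on the minus strand at chr11:117969497-117969535. STAT3 control of this promoter is textbook knowledge, but whether this match takes part in it was not tested. The window is shown with the match in capitals.
Socs3 promoter: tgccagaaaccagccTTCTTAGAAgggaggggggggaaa

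None of the 4 promoters was overlapped by a region. The nearest region was 126 bp from the Socs1 promoter, 3790 bp from that of Socs3, 57319 bp from that of Cish and 234653 bp from that of Socs4. Over the full set of 41, no region was centred within 1 kb of a start of a family gene, and the 1 promoter-proximal region belonged to Gm15558, an antisense gene within Clec16a. That is 2.44% of the family's regions, beside 12.6% of all regions. Counted by gene, only 4.93% of 21938 protein-coding genes had a region centred within 1 kb of a start. The lack of one at the family genes was therefore the common case and does not set the family apart. Introns held 26 of 41 centres (63.4%, beside 49.8%) and intergenic sequence 11 (26.8%, beside 34.1%).

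Socs2, a brake on growth hormone signalling, had 2 increased and 2 decreased regions. The gene (ENSMUSG00000020027.18) lies at chr10:95385362-95417180 on the minus strand and has 12 annotated transcript starts. An increased region of 1473 bp lay in one of its introns, at chr10:95394479-95395951, with its centre 21965 bp from the gene start but 2248 bp from a start of a shorter transcript. The other increased region, of 2405 bp, lay 151547 bp downstream in an intron of Cradd, which encodes an adaptor of caspase-2. The decreased regions, of 1184 and 2002 bp, lay 74332 bp downstream and 57305 bp upstream, nearest to Cradd and to the mitochondrial ribosome gene Mrpl42. The 10-Mb window of Socs2 was mostly increased, with 39 increased and 7 decreased regions (84.8%), as was the rest of chromosome 10 (69.2%). The 2 decreased regions at Socs2 were thus among few of that direction nearby, and the part of the chromosome-wide imbalance in the intronic increase was not tested.

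Cish encodes CIS, the founding member, which is induced by STAT5 and competes for receptor docking sites. The gene (ENSMUSG00000032578.7) lies at chr9:107296026-107302784 on the plus strand. It was the single family gene with increased regions and no decreased one. Both lay upstream, at 57488 and 60337 bp, with widths of 1104 and 724 bp and a gap of 1935 bp, and both were intergenic with Dock3, a Rac exchange factor gene, as nearest protein-coding start. They entered through the 200-kb distance alone. On the rest of chromosome 9, 27.1% of regions were increased, and in the 10-Mb window 22 were increased and 29 decreased (43.1%).

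**Figure D4:**
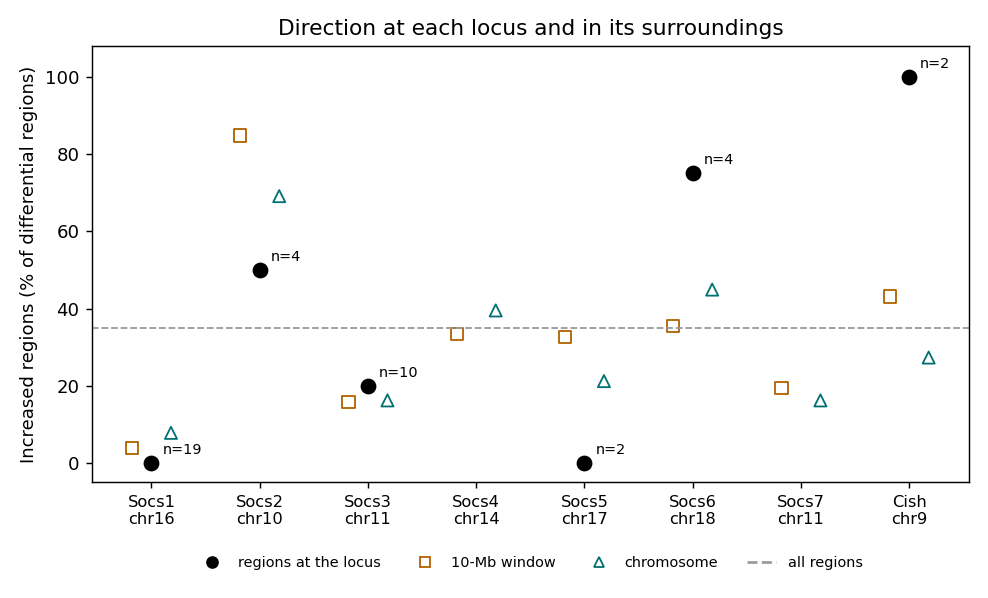
Share of increased regions (% of differential regions) at each Socs family locus (black circles, with the number of regions), in the 10-Mb window that holds it (squares) and on its chromosome (triangles), with the share over all regions as a dashed line. Socs1 and Socs3 lie near the shares of their surroundings, the 4 regions of Socs2 lie below theirs, and the loci of Socs5, Socs6 and Cish rest on 4 or fewer regions, and Socs4 and Socs7 have no circle. Window and chromosome shares include the locus's own regions.

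The longer family members, Socs4 to Socs7, have been tied to growth factor and insulin receptor signalling more than to cytokines. They had at most 4 regions each, as had Socs2 and Cish. Socs5 (ENSMUSG00000037104.9, chr17:87107679-87137839, plus strand) had a decreased region of 1342 bp in its own intron at chr17:87124556-87125897, centred 17547 bp from the start. This region had 39 CpG sites and the highest observed-to-expected CpG ratio of the decreased regions at family loci, 0.452. Its other region, decreased and 962 bp wide, lay 127135 bp upstream in Rhoq, which encodes a small GTPase of insulin-stimulated glucose uptake. The intronic regions of Socs2 and Socs5 were the regions inside a family gene other than Socs1 from which sequence is shown. The windows lie around the single match to TGANTCA that each held. TGANTCA is a loose form of the AP-1 site, which has C or G in the middle, and it allows any letter there. AP-1 (Fos and Jun) acts at many inducible enhancers. The letters of the loose form occurred in 18 of the family's 41 regions (43.9%), beside 34.5% of all regions. Per kb they occurred 0.403 times, beside 0.409 in all regions, and in the central 500 bp they occurred in 14.6% of the family's regions, beside 20.1% of all. The windows lie at chr10:95395623-95395689 on the minus strand and chr17:87125802-87125868 on the plus strand, with the match in capitals.
Socs2 intron: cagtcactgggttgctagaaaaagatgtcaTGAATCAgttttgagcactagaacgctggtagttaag
Socs5 intron: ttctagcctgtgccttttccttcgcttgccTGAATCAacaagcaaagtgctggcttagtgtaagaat

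The 2 windows carry the same 7 letters at the match, TGAATCA, and so neither holds the C or G of the AP-1 site. They lie in regions of opposite direction, increased at Socs2 and decreased at Socs5. For CATTCC, the core of TEAD sites, which act with the Hippo coactivators, the family's share was 39.0% of regions, beside 47.0% of all regions.

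Insulin receptor substrates are among the proteins bound by the next member. Socs6 (ENSMUSG00000056153.15, minus strand) is by far the longest gene of the family, at 262258 bp. An increased region of 959 bp lay in one of its introns, 93539 bp from the gene start and 53395 bp from the closest transcript start. Its 3 other regions, a decreased one of 501 bp lying 32319 bp upstream and increased ones of 501 and 1208 bp, were nearest to Rttn, a centriole gene. The increased pair sat 198048 and 199654 bp from the Socs6 start, at the very edge of the 200-kb limit. A region of Socs1 also lay just inside the limit, at 198841 bp. Just outside it lay regions at 202884 bp from Socs3, 203932 bp from Socs6, 214313 bp from Socs1 and 222040 bp from Cish. On the rest of the Socs6 chromosome 44.6% of regions were increased, and in its 10-Mb window 35.5%.

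Socs4 and Socs7 had no region. The nearest was a decreased one in each case, 235235 bp from the start of Socs4 (ENSMUSG00000048379.9, chr14:47276931-47296102) and 324320 bp from that of Socs7 (ENSMUSG00000038485.5, chr11:97362551-97398542). Increased regions were farther away, at 947227 and 776885 bp. The surroundings were also thinly populated at Socs4, whose 10-Mb window held 3 increased and 6 decreased regions.

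Over all 41, the regions were wider and richer in GC than those of the whole lists, but not at every locus. The median width was 1132 bp, beside 822 bp for all regions, and 61.0% were at least 1 kb wide, beside 38.7%. At least 3 kb was reached by 4 of the 41 (9.76%, beside 4.22%), 3 at Socs1 and 1 at Socs3. Without Socs1 the median width was 1075 bp. The mean GC content was 49.6% ± 5.21 (SD over 41 regions), beside 46.5% ± 5.79 for all regions, and 48.0% ± 6.09 without Socs1. The 4 regions of Socs2 (44.7 to 46.3%) and the 4 of Socs6 (34.7 to 41.2%) all lay below the mean of all regions. Decreased regions had 51.1% ± 3.90 at the family loci and 48.0% ± 5.28 in the whole list, and increased ones 44.4% ± 6.10 and 43.5% ± 5.56, so the distance from the whole list was wider for decreased than for increased regions. The GC content of the decreased regions at Socs1 was 51.4% ± 3.21, beside 46.5% ± 4.96 for decreased regions of chromosome 16. Regions of 1 locus lie in shared sequence and are not independent, and these SDs are over regions and not over cultures.

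**Figure D5:**
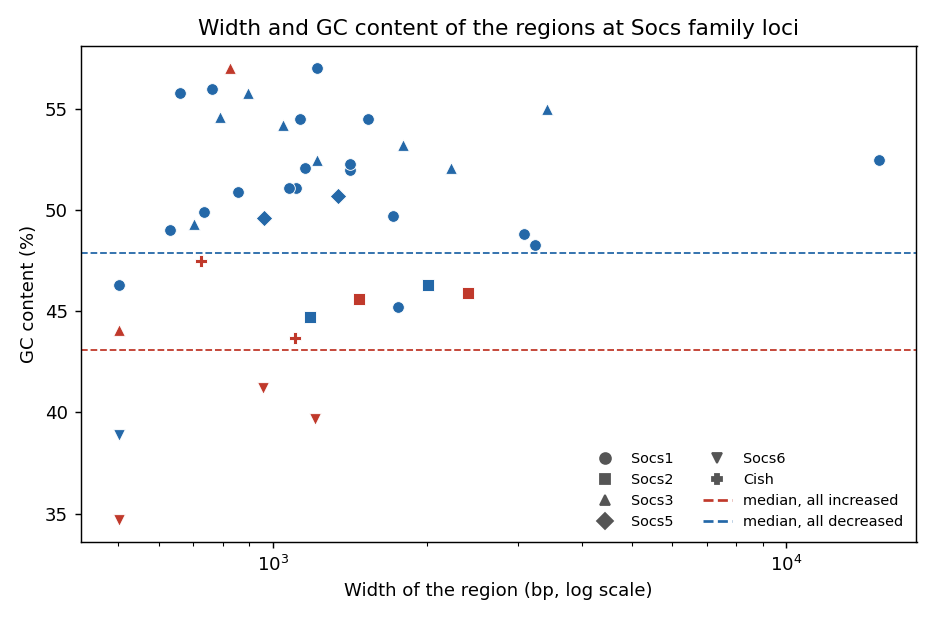
Width (x axis, bp, log scale) and GC content (y axis, %) of the 41 regions at Socs family loci, with the symbol for the gene, red for increased and blue for decreased, and dashed lines at the median GC content of all increased (43.1%) and all decreased (47.9%) regions. The broad Socs1 region of 15129 bp stands alone on the right, and the decreased regions of Socs1 and Socs3 lie mostly above the blue line.

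The proteins that act with the SOCS family were listed by role, 96 genes in all, to place the family in its pathway. At least 1 increased region lay within 200 kb of the start of 44 of them (45.8%, beside 35.6% of protein-coding genes). A decreased one lay within 200 kb of 60 (62.5%, beside 55.9%), with both at 23 and neither at 15. Neighbouring genes such as Lif and Osm counted the same regions. Of the genes with an increased region, Ctf1, Il11, Il4ra, Bcl3, Ccnd1 and Igf1r lie on chromosome 7, where 97.7% of regions were increased. Among 22 ligands 16 had an increased and 8 a decreased region, and among 26 receptors 8 had an increased and 16 a decreased one. Of the 4 JAK kinases Jak2 had an increased region, and Jak1, Jak3 and Tyk2 had decreased ones. Of the 7 STATs 5 had an increased and 6 a decreased region. All 5 partners of the SOCS box, Elob, Eloc, Cul5, Rnf7 and Rbx1, had a decreased and none an increased region, with 1 to 3 regions each, none of them with the partner as nearest start. Of 11 other inhibitors 3 had an increased and 9 a decreased region, of 16 STAT target genes 8 and 10, and of 5 genes of the insulin and IGF arm 3 and 3.

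A region within 1 kb of a start was found at 7 of the 96, beside 4.93% of protein-coding genes. It was increased at 3, beside 2.26%, and decreased at 4, beside 2.72%. The increased ones were at the cytokine genes Lif (905 bp, centre 119 bp from the start) and Ctf1 (1853 bp, 188 bp) and at Stat6 (2643 bp, 584 bp). The decreased ones were at the receptor genes Il2rb (645 bp, 241 bp) and Ifnar2 (2019 bp, 270 bp), at Stat5a (1137 bp, 400 bp) and at Bcl3 (852 bp, 388 bp). The 2 directions met at Lif, whose locus held 10 decreased regions beside the increased one at its start.

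In the whole lists decreased regions covered 8788597 bp and increased ones 4016767 bp, so a ranking by covered base pairs favours decreased loci. The loci with the most covered base pairs within 200 kb in each role were likewise mostly decreased. Many of these regions lay nearest to other genes. No decreased region had Osm, Cntfr, Il11ra1, Stat3, Cebpb, Bcl2l1, Pias4 or Rbx1 as nearest start. Lif, Csf2rb, Jak1, Stat5a, Stat5b, Ptpn1, Pim1, Sh2b3, Irs1 and Irs2 each had at least 1 decreased region nearest to them. Among ligands these were Lif and its neighbour Osm, with the same 11 regions and 15451 bp, and Ctf1 with 4 increased regions. Among receptors they were Csf2rb with 11 decreased regions and the neighbours Cntfr and Il11ra1, which shared their 7. Jak1 led the kinases with 4 decreased regions. Stat3, the main STAT of gp130 signalling, had 6 decreased and 1 increased region over 14347 bp. Only the increased one had Stat3 as nearest start. The study names Stat3 among genes near increased H3K27ac in the myotubes whose RNA was upregulated in KO gastrocnemius muscle. Of the 7 regions at Stat3, 5 were shared with Stat5a. Stat5a and Stat5b shared all 7. Ptpn1, a phosphatase of JAK2 and of the insulin receptor, had 10 decreased regions over 19415 bp, and the STAT target Cebpb had 9, of which 6 were the same regions. Bcl2l1 followed with 7 decreased regions and 1 increased, and Pim1 with 11 decreased. Igf1r stood on the other side with 9 increased regions over 12434 bp and no decreased one, on chromosome 7, where 973 regions were increased and 23 decreased (97.7%), while Irs1 had 1 increased and 3 decreased and Irs2 had 2 decreased. Rbx1 led the SOCS box partners with 1 decreased region of 3531 bp. Pias4 and Sh2b3 completed the other inhibitors with 3 and 4 decreased regions.

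The label of myotubes could be checked against the lists only in part, since they hold differences between genotypes and not levels. Of 6 genes of differentiated muscle, Ckm and Tnnt3 had 4 and 5 increased regions within 200 kb and no decreased one, both on chromosome 7 with its 97.7% of increased regions, Myh3 and Des had regions of both directions, Acta1 had 1 decreased region and Myog had none. No region shared a base with any of the 6.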

How the data were processed

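Per the labels, H3K27ac and IgG CUT&RUN libraries were made from Nrip1KO and Ctrl myotubes. The authors aligned paired reads to mm10 with BWA-MEM2 2.2.1, called broad peaks with HOMER 4.11 and listed regions with a 2-fold or greater difference in peak intensity, as their methods and the submitters' processing notes give. How replicates and IgG libraries entered these calls is not given in the sources used here. The deposited score is 1 in every region and gives no ranking, and starts, which the deposited intervals count from 0, are printed here counted from 1. No fold change per region was at hand.

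Genes, starts and exons came from GENCODE M21 (55413 genes), and sequence from GRCm38.p6, to which mm10 corresponds. A region was inside a gene when it shared at least 1 base with the gene record, nearest starts were taken over all transcript starts of protein-coding genes, and the 200-kb distance ran from the region's centre to the 5′ end of the gene record. Work by position did not include 1 region that lies on an unplaced sequence. Nearest-start lookups were tested on simulated positions. A separate search pattern for TTCNNNGAA found planted matches in simulated sequence, and the motif counts themselves were not tested. Python 3.11.15, pysam 0.24.0, samtools 1.23.1, scipy 1.17.1 and matplotlib 3.10.9 were used.

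The family genes, the gene lists and the motifs were chosen with earlier results of these data known, so no result received a p-value. Named were the 8 family genes, the nearest protein-coding gene of each region, listed pathway genes with a region centred within 1 kb of a start, up to 3 genes per role by covered base pairs, and the 5 genes most like Socs1 by decreased base pairs within 10 kb. Wilson intervals at 95% cover counting error over regions only. Alternatives varied the distance, the assignment rule, the width and the joining of neighbouring regions.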

Additional observations from a re-analysis of the deposited data

How the results depend on the processing

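The numbers of regions at the family genes followed the distance that was allowed. From 9 increased and 32 decreased, they went to 5 and 17 within 100 kb and to 2 and 10 within 50 kb, and decreased regions to 79 within 500 kb. With the nearest protein-coding start alone they were 2 and 9, and inside the gene alone 2 and 2. With a minimum width of 1 kb they were 4 and 21, and with neighbours within 10 kb joined the decreased regions numbered 20. At Socs1 alone the 19 regions became 8 within 100 kb, 38 within 500 kb and 9 after joining within 10 kb. Measuring from any transcript start, counting any base of the region and letting all annotated genes compete for the nearest start left 9 and 32. Of the listed pathway genes, 18 had an increased and 26 a decreased region when only the nearest protein-coding start counted, down from 44 and 60, which is 18.8% and 27.1% of the 96 beside 10.7% and 17.8% of all protein-coding genes. The share of family regions with TTCNNNGAA fell from 31.7% to 14.6% in the central 500 bp, while that of all regions fell from 28.6% to 15.7%, and with TTCCNGGAA it was 7.32% beside 3.87%. No paired analysis was possible because the lists hold no value per library, although the labels give the groups the same replicate numbers. For the same reason no replicate could be left out, and depth, which limits which regions pass a 2-fold cutoff, is unknown.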
